A study of Mus musculus with 16 samples.

Results

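The response of wild-type epicardial cells to transforming growth factor beta 2 (TGFB2) was measured by RNA sequencing of polyadenylated RNA in 4 of the 16 libraries of the study. These were the 2 libraries of wt cells given TGFB2 and the 2 libraries of wt cells given vehicle, compared within replicate number. Every gene entry was considered, and 16835 of 30385 entries passed a read filter over all 16 libraries and were tested. Some of these had 0 reads in the 4 libraries compared here. The wt line (genotype Tgfbr3+/+:Immorto, C57BL/6 SV129 mixed background) was an immortalized epicardial line isolated at E11.5, and it carries a temperature-sensitive T antigen that permits growth at 33 °C in the presence of interferon gamma. For the experiment, all groups were moved to 37 °C without interferon gamma, which inactivates the T antigen, plated at 200000 cells per well, and kept for 72 h with vehicle or with 250 pM TGFB2. The remaining libraries were wt cells with 250 pM TGFB1 or 5 nM BMP2 and the same 4 treatments in an mt line (genotype Tgfbr3-/-:Immorto), again with 2 libraries per group. A line stands for 1 genotype, and the labels do not say whether the 2 replicates were separate cultures, so p-values measure the spread between these samples only.

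The epicardium is the mesothelial sheet that covers the heart, and in the embryo part of its cells lose their epithelial character, invade the heart wall and become fibroblasts and vascular smooth muscle cells. TGFB2 is a secreted ligand that binds the kinase receptors TGFBR1 and TGFBR2, needs the co-receptor TGFBR3 (betaglycan) for efficient binding, and acts through phosphorylated SMAD2 and SMAD3, which enter the nucleus with SMAD4. Bone morphogenetic proteins (BMPs), which belong to the same family, use other receptors and act through SMAD1, SMAD5 and SMAD9. In many epithelial and mesenchymal cells TGF-beta signalling raises matrix and contractile genes and slows division.

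Depth ranged from 6410320 to 31813921 reads over the 16 libraries and from 16698912 to 27220460 reads over the 4 libraries compared here. Libraries of the same replicate number deviated together from their group means in 28 of 28 pairs of groups (correlations across genes of 0.163 to 0.756, and 0.546 for wt vehicle with wt TGFB2), and each replicate number has its own deposited table. Replicate number was therefore a term of the test, and "unpaired" below means the same test without it. Levels are counts per 1000000 reads after TMM scaling (CPM), given for replicate 1 and then replicate 2. Changes are log2 fold changes of TGFB2 over vehicle ± their standard error (SE), with n = 2 in each group. The adjusted p comes from edgeR's quasi-likelihood test with Benjamini-Hochberg adjustment across the 16835 genes, and a gene is called where it is below 0.05. Whether reads were counted by strand is not given, so reads of overlapping entries cannot be told apart. Among genes named below this concerns Aebp1, Angptl2, B2m, Ccnd1, Eng, Fstl3, Fxyd3, Gsto1, Has2, Hmgcs1, Hyal1, Itgb4, Lgals2, Msx1, Pdgfd, Runx2, Scx, Serpind1, Tagln and Tk1, which overlap a gene of another name, and further genes that overlap microRNA, unnamed cDNA or alternative entries.

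The cells of the vehicle libraries carried the genes that mark epicardium. Wt1, the Wilms tumour factor of the epicardium, stood at 172 and 156 CPM, Tcf21, a factor of the fibroblast branch, at 396 and 425 CPM, and the mesothelial uroplakin gene Upk3b at 1365 and 1190 CPM. Cdh1, which encodes the E-cadherin of most epithelia, was near the detection limit at 0.18 and 0.104 CPM. Markers of other cells of the embryonic heart ranged from 0 reads to clear expression. Ptprc (all white blood cells), Erg (endothelium) and Foxd3 (neural crest) had 0 reads in the 4 libraries, as did the cardiomyocyte genes Actn2 and Myl3. The 18 cardiomyocyte markers summed to 158 and 268 reads per 1000000 (RPM) in vehicle and to 662 and 901 with TGFB2, most of it from Tnnt2, the cardiac troponin T gene (129 and 235 CPM in vehicle and 648 and 906 CPM with TGFB2), which rose (2.12 ± 0.32, adjusted p = 0.00017). Of those 18 markers 2 rose and 2 fell (2 and 0 unpaired). The share called, 22.2%, was below the 34.7% of all genes tested. The second riser was the troponin C gene Tnnc1 (0.674 and 0.867 CPM in vehicle and 6.44 and 6.76 CPM with TGFB2, 3.07 ± 0.42). Other members had fewer reads with TGFB2. Myl7 had 416 and 257 reads in vehicle and 125 and 96 with TGFB2. Myl4 had 54 and 76 reads in vehicle and 12 and 26 with TGFB2, and Tnni3 had 19 and 23, then 1 and 5. The 12 endothelial markers summed to 64.6 and 63.2 RPM in vehicle and to 28.8 and 37.7 with TGFB2, the 11 blood markers to 12.3 and 13.2 and then 23.4 and 37.1, and the 11 neural markers to 6.21 and 6.8 and then 12 and 8.9. Of the markers tested, 3 of 6 endothelial ones fell (among them Egfl7 and the angiopoietin receptor gene Tek, at 17.7 and 18.8 CPM in vehicle and 5.95 and 7.38 CPM with TGFB2). Of the blood markers, 1 of 6 rose (Cd68, a lysosomal protein of macrophages) and 1 fell, and 2 of 4 neural markers rose. Unpaired, 2 endothelial markers fell, 1 blood marker rose and 1 fell, and 0 neural markers rose. Over all genes tested, 18.4% rose and 16.3% fell, and these lists are too short to set against those shares. Kdr, the VEGF receptor 2 gene, was the most abundant endothelial marker, at 31.7 and 26.1 CPM in vehicle and 15.2 and 21.9 CPM with TGFB2 (-0.61 ± 0.25, adjusted p = 0.074). The part of other cell types in the results was not tested. In bulk RNA, fewer cells of a type and less RNA per cell cannot be told apart.

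TGFB2 changed 5837 genes, 34.7% of those tested: 3093 were higher (18.4%) and 2744 lower (16.3%). Among them, 5836 had the same sign in both replicate pairs. In 5688 the 2 TGFB2 values lay wholly above or below the 2 vehicle values. Both counts follow largely from the call, which rests on these same values, and they add no separate support. The median log2 fold change was 1.26 among the genes that rose and -1.05 among those that fell, against 0.02 over all genes tested. A change of at least 4-fold was reached by 925 of the higher and 463 of the lower genes, and one of at least 16-fold by 215 and 78. Of the higher genes, 501 had under 20 reads in vehicle, 41 of them with 0. Of the lower genes, 228 had under 20 reads with TGFB2, 17 of them with 0. The size of such changes is poorly determined. Without the replicate term 3383 genes were called, of which 1862 were higher (11.1% of genes tested) and 1521 lower (9.03%), and 2886 genes were called in each of the fits that left out 1 of the 4 libraries.

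**Figure D1:**
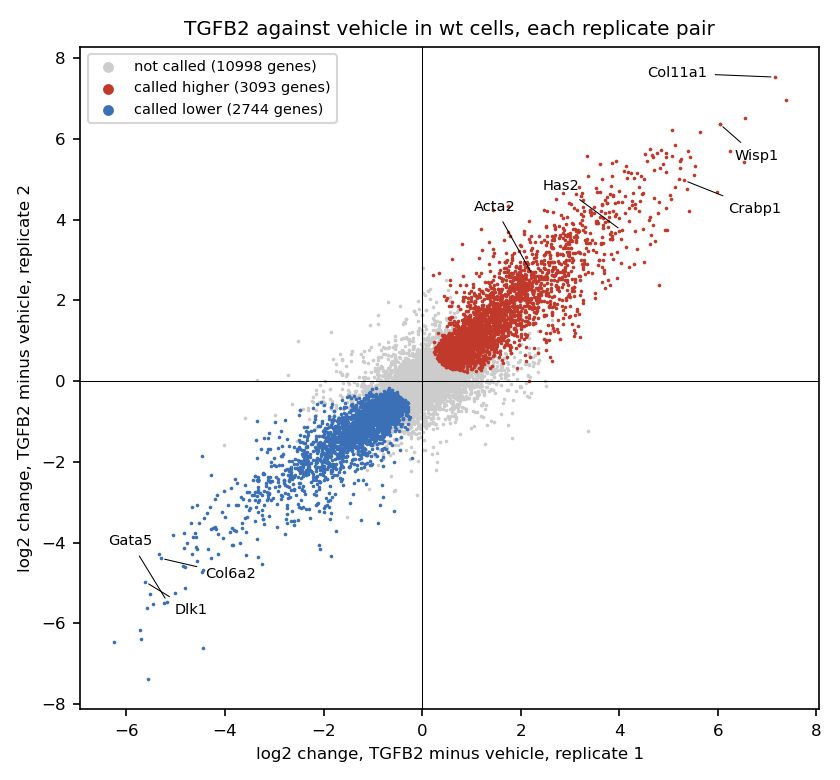
Log2 change of TGFB2 over vehicle in replicate pair 1 (x axis) against replicate pair 2 (y axis) for the 16835 genes tested, 1 point per gene, coloured by the call of the test over both pairs. The changes of the pairs had SDs of 1.085 and 1.078 and a correlation across genes of 0.893, and the named genes lie near the diagonal.

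Among the TGF-beta ligand and latent-binding-protein genes, 9 of 16 tested rose and 2 fell, beside the 18.4% and 16.3% of all genes. Unpaired, 6 rose and 2 fell. Tgfb2 itself, the gene of the ligand added, stood at 20.1 and 27.2 CPM in vehicle and 24 and 23.7 CPM with TGFB2, and the groups overlapped (0.04 ± 0.19, adjusted p = 0.91). Tgfb1 had 29.5 and 30.3 CPM in vehicle and 49.5 and 59 CPM with TGFB2 (0.86 ± 0.18, adjusted p = 0.0022). Tgfb3 had 52.7 and 45.4 CPM in vehicle and 128 and 83.7 CPM with TGFB2 (1.09 ± 0.22, adjusted p = 0.0016), so both other ligand genes were higher in each TGFB2 library. Inhba, which encodes the subunit of activin A, stood at 6.11 and 4.89 CPM in vehicle and 44.3 and 28.7 CPM with TGFB2, with no overlap (2.71 ± 0.28, adjusted p = 8e-06). The inhibin alpha gene Inha, whose product turns activin subunits into the antagonist inhibin, went the other way, from 7.24 and 6.21 CPM to 2.25 and 1.37 CPM (-1.93 ± 0.28, adjusted p = 9.3e-05). Of the latent TGF-beta binding proteins, which hold the inactive ligand in the matrix, Ltbp1 had 3.69 and 4.75 CPM in vehicle and 25.3 and 23.6 CPM with TGFB2 (2.53 ± 0.24, adjusted p = 4.1e-06). Ltbp2 had 131 and 224 CPM in vehicle and 896 and 1066 CPM with TGFB2 (2.46 ± 0.35, adjusted p = 0.0001). Ltbp4 was lower in both TGFB2 libraries, at 131 and 118 CPM against 270.1 and 197 CPM (-0.90 ± 0.20, adjusted p = 0.0037). Fstl3, a secreted activin antagonist, also rose (2.2 and 1.35 CPM in vehicle and 7.71 and 7.16 CPM with TGFB2, 2.10 ± 0.25).

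The receptor genes were split, with 3 of 10 higher and 4 lower, the same counts unpaired. Tgfbr3, located on chromosome 5 from 107535589 to 107718614 (mm9), had 71 and 100.3 CPM in vehicle and 32.5 and 51 CPM with TGFB2. Each TGFB2 library was below each vehicle library (-1.04 ± 0.21, adjusted p = 0.0013). Tgfbr1, the kinase receptor that phosphorylates SMAD2 and SMAD3, had 25.2 and 30.2 CPM in vehicle and 67.4 and 61.4 CPM with TGFB2 and so was higher in both TGFB2 libraries (1.24 ± 0.21, adjusted p = 0.00038). Tgfbr2, the ligand-binding kinase, had 133 and 143 CPM in vehicle and 112 and 113 CPM with TGFB2 (-0.30 ± 0.15, adjusted p = 0.14). Acvrl1, the receptor ALK1 best known from endothelium, stood at 12.9 and 13.4 CPM in vehicle and 66.1 and 75.8 CPM with TGFB2, with a wide gap between the groups (2.43 ± 0.33, adjusted p = 7e-05). The co-receptor gene Eng (endoglin) rose from a low level (6.97 and 4.75 CPM in vehicle and 11.6 and 12.4 CPM with TGFB2, 1.08 ± 0.21), whereas the activin receptor gene Acvr1b fell (34.2 and 36.6 CPM in vehicle and 15.1 and 21.2 CPM with TGFB2, -0.97 ± 0.18).

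Of 17 Smad and inhibitor genes, 6 rose and 3 fell (5 and 3 unpaired). Smad3 had 48.3 and 48.4 CPM in vehicle and 71.6 and 55.5 CPM with TGFB2 (0.37 ± 0.20, adjusted p = 0.17). Smad7, the inhibitory Smad usually induced by TGF-beta, had 94.2 and 88.8 CPM in vehicle and 89 and 88.5 CPM with TGFB2 (-0.04 ± 0.19, adjusted p = 0.89). Neither passed the test, although both Smad3 values with TGFB2 were above both in vehicle. Pmepa1, a membrane protein that sequesters SMAD2 and SMAD3, had 55.9 and 31.6 CPM in vehicle and 603 and 552 CPM with TGFB2, more than in any vehicle library (3.79 ± 0.27, adjusted p = 4.3e-07). The nuclear co-repressor genes Skil and Tgif1 were higher too: Skil had 21.1 and 30.7 CPM in vehicle and 80.4 and 103 CPM with TGFB2 (1.83 ± 0.18). Tgif1 had 22.5 and 28.2 CPM in vehicle and 64.1 and 57.5 CPM with TGFB2 (1.26 ± 0.17).

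SMAD3 target genes rose in 17 of 29 cases and fell in 4, with a median of 1.26 beside 0.02 for all genes, and unpaired 15 rose and 2 fell. Ctgf (connective tissue growth factor), whose locus overlaps the entry AK014660, had 122 and 129 CPM in vehicle and 799 and 830.2 CPM with TGFB2, with no overlap between the groups (2.70 ± 0.27, adjusted p = 5.6e-06). Ankrd1, which encodes a nuclear ankyrin repeat protein, stood at 4.27 and 6.56 CPM in vehicle and 69.8 and 88.4 CPM with TGFB2 (3.86 ± 0.50, adjusted p = 6.6e-05), and Pdgfb, a ligand for mural cells, at 2.65 and 2.67 CPM in vehicle and 19.9 and 18.1 CPM with TGFB2 (2.83 ± 0.26, adjusted p = 3e-06). Il11, a cytokine of the interleukin 6 family, was low but higher with TGFB2 (0.45 and 0.728 CPM in vehicle and 2.25 and 1.77 CPM with TGFB2, 1.73 ± 0.34). The 4 that fell were the matrix genes Col1a2, Col3a1, Fn1 and Tnc, described below. Tgfbi, named for its induction by TGF-beta, had 15.8 and 33.1 CPM in vehicle and 7.47 and 24.7 CPM with TGFB2, and the groups overlapped (-0.68 ± 0.35, adjusted p = 0.15).

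**Figure D2:**
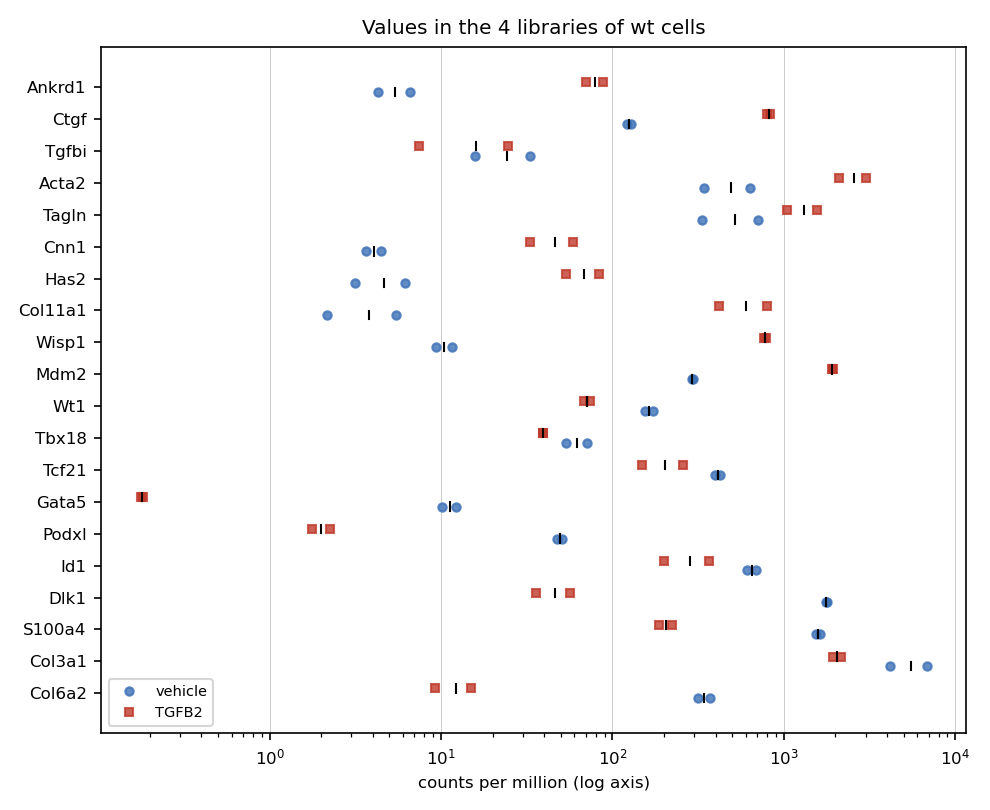
CPM (log axis) of 20 genes in the 2 vehicle libraries (blue circles) and the 2 TGFB2 libraries (red squares) of wt cells, with a black bar at the mean of each pair. Cnn1, Has2, Col11a1 and Wisp1 lie far to the right with TGFB2 and Dlk1, Gata5, Podxl and Col6a2 far to the left, while the values of Tgfbi overlap.

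Promoter windows were printed for the SMAD3 targets to show sequence beside their direction of change. Of the 16 targets with a RefSeq window (GRCm38.p6, 250 bases before to 50 bases after a start site), 8 held CAGACA, a core of the elements that SMAD3 and SMAD4 bind, on either strand, against 18.7% of the 9714 tested genes with a window. It was present in 5 of the 9 that rose and in 3 of the 3 that fell. Over all genes it was found in 22.7% of those that rose and 18.8% of those that fell. A gene was counted where any of its windows held the motif. The targets are too few to say whether the motif separates risers from the others. Capitals mark it in the stretches below, written 5′ to 3′ on the gene's strand, for the risers Ankrd1, Cdkn1a and Nox4 and for Col1a2, which fell. Ctgf had no window in the table used.
Ankrd1, chr19:36119916-36120041, minus strand: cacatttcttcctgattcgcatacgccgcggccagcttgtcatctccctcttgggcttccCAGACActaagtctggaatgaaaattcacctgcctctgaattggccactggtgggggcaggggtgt
Cdkn1a, chr17:29093573-29093698, plus strand: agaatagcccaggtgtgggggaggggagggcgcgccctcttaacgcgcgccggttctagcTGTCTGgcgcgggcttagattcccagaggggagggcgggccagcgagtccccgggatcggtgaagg
Nox4, chr7:87246447-87246572, plus strand: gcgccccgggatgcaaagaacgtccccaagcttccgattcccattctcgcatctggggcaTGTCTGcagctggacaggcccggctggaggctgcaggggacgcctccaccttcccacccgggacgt
Col1a2, chr6:4505383-4505508, plus strand: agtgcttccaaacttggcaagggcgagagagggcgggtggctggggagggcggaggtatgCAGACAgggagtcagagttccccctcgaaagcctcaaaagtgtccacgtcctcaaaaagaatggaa
The match describes these letters only and says nothing of binding.

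Genes of the BMP branch mostly moved down: 12 of 20 fell and 2 rose (11 and 0 unpaired), with a median of -1.56. Bmp4, a ligand, had 231 and 241 CPM in vehicle and 36 and 45.9 CPM with TGFB2, far below vehicle in both libraries (-2.53 ± 0.26, adjusted p = 5.7e-06). Id1, encoding an inhibitor of helix-loop-helix factors and a direct SMAD1 target, had 687 and 614 CPM in vehicle and 199.5 and 368 CPM with TGFB2 (-1.28 ± 0.25, adjusted p = 0.0011). Id2 had 159 and 260.4 CPM in vehicle and 26.1 and 83.4 CPM with TGFB2 (-2.08 ± 0.26, adjusted p = 3.4e-05). Id3 had 1275 and 1742 CPM in vehicle and 256 and 692 CPM with TGFB2 (-1.87 ± 0.30, adjusted p = 0.00024, unpaired adjusted p = 0.16). For these 3 Id genes, replicate 1 with TGFB2 was lower than replicate 2, and both were below both vehicle values. Smad6, an inhibitor of BMP signalling, fell from 194 and 174 CPM to 30.6 and 40.02 CPM (-2.39 ± 0.28, adjusted p = 1.8e-05). Smad9 fell from 41 and 35.1 to 4.01 and 5.34 CPM (-3.02 ± 0.28, adjusted p = 3.2e-06). The helix-loop-helix gene Atoh8 fell from 161 and 116 to 17.2 and 23.3 CPM (-2.75 ± 0.27, adjusted p = 4.3e-06). Bambi, a pseudoreceptor that blocks the pathway, and the homeobox gene Msx1 fell as well (-1.82 ± 0.23 and -1.60 ± 0.21). The receptor gene Bmpr2 was higher, at 66.5 and 49.5 CPM against 21.4 and 21.3 CPM (1.40 ± 0.30, adjusted p = 0.0028, unpaired adjusted p = 0.066).

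All 10 epicardial transcription factor genes tested fell (median -1.03), 6 of them also unpaired, beside 16.3% of all genes that fell. Gata5, a zinc finger factor of the early heart, had 10.2 and 12.3 CPM in vehicle and 0.182 and 0.177 CPM with TGFB2, or 7 reads in both TGFB2 libraries together against 581 in vehicle (-5.93 ± 0.44, adjusted p = 6.4e-07). Wt1 had 73.8 and 68.6 CPM with TGFB2, less than either vehicle value (-1.20 ± 0.20, adjusted p = 0.00034). Tcf21, whose entry overlaps AK033378, had 148 and 257 CPM (-1.09 ± 0.20, adjusted p = 0.00087, unpaired adjusted p = 0.13). Tbx18, the T-box factor that marks the epicardial lineage, had 53.7 and 70.9 CPM in vehicle and 39.2 and 39.4 CPM with TGFB2 (-0.64 ± 0.20, adjusted p = 0.022, unpaired adjusted p = 0.14, adjusted p = 0.2 without TGFB2 replicate 2). Tbx20 fell from 135 and 145 to 55.7 and 59.5 CPM (-1.28 ± 0.21, adjusted p = 0.00037). Gata6 fell from 350.3 and 318 to 163 and 179 CPM (-0.97 ± 0.20, adjusted p = 0.0017). Gata4 fell from 143 and 164 to 76.1 and 90.9 CPM (-0.88 ± 0.20, adjusted p = 0.004, adjusted p = 0.067 without TGFB2 replicate 1). Hand2 also fell (-1.22 ± 0.20). The weakest was Nr2f2, whose groups overlapped (59.2 and 97.5 CPM in vehicle and 39.3 and 64.9 CPM with TGFB2, -0.59 ± 0.20, adjusted p = 0.035, unpaired adjusted p = 0.46, adjusted p = 0.13 without TGFB2 replicate 1).

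Surface and secreted genes of mesothelium fell in 13 of 20 cases and rose in 1 (12 and 1 unpaired), with a median of -1.47. Podxl, which encodes the sialomucin podocalyxin of the apical membrane, had 51 and 47.4 CPM in vehicle and 2.25 and 1.77 CPM with TGFB2, a near loss (-4.62 ± 0.33, adjusted p = 5.5e-07). Upk3b had 234 and 269 CPM with TGFB2, well below vehicle (-2.35 ± 0.21, adjusted p = 2.3e-06). Lrrn4, a leucine-rich repeat gene of mesothelium, had 852 and 1007 CPM in vehicle and 136 and 205 CPM with TGFB2 (-2.47 ± 0.28, adjusted p = 1.4e-05). The claudin gene Cldn15 fell from 82.1 and 107 to 6.38 and 14.7 CPM (-3.26 ± 0.30, adjusted p = 3.1e-06). The R-spondin gene Rspo1 fell from 191 and 109 to 25.6 and 17.8 CPM (-2.76 ± 0.23, adjusted p = 1.7e-06). The proteoglycan gene Dcn fell from 528 and 849 to 85.1 and 159.5 CPM (-2.51 ± 0.26, adjusted p = 5.9e-06). Keratin genes of simple epithelia differed: Krt7 and Krt19 fell (-1.85 ± 0.22 and -1.61 ± 0.19), while Krt8 and Krt18 were near 1 to 3 CPM and were not called. Msln, the mesothelin gene, had 419 and 364 CPM in vehicle and 426 and 457 CPM with TGFB2 (0.19 ± 0.19, adjusted p = 0.49). Aldh1a2, the retinaldehyde dehydrogenase that makes retinoic acid in epicardium, was the exception among those called, at 17 and 20.4 CPM in vehicle and 56.5 and 31 CPM with TGFB2 (1.17 ± 0.28, adjusted p = 0.0052, adjusted p = 0.089 without vehicle replicate 1).

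Genes linked to mesenchymal transition showed no common direction: 4 of 16 rose and 5 fell (3 and 4 unpaired), with a median of -0.04. Snai1 had 30.3 and 23.9 CPM in vehicle and 30.2 and 31.2 CPM with TGFB2 (0.18 ± 0.19, adjusted p = 0.5). Snai2 had 11.8 and 24.2 CPM in vehicle and 15.7 and 18.3 CPM with TGFB2 (0.01 ± 0.29, adjusted p = 0.98). Both encode zinc finger repressors of E-cadherin, and both had overlapping groups. The related Snai3 had 1.57 and 0.936 CPM in vehicle and 23.6 and 26 CPM with TGFB2, much higher with TGFB2 (4.34 ± 0.41, adjusted p = 4.3e-06), as did the forkhead gene Foxc2 (2.47 and 2.22 CPM in vehicle and 22.3 and 25.5 CPM with TGFB2, 3.36 ± 0.23, adjusted p = 4.2e-07). Twist1, a helix-loop-helix factor of mesenchyme, was lower, at 101 and 78.5 CPM in vehicle and 34.5 and 28.7 CPM with TGFB2 (-1.50 ± 0.16, adjusted p = 9.3e-06). Zeb2, a further repressor of E-cadherin, fell (-1.07 ± 0.19). S100a4, the fibroblast-specific protein 1 gene, had 1623 and 1543 CPM in vehicle and 188 and 223 CPM with TGFB2, so that its TGFB2 values were far below vehicle (-3.00 ± 0.55, adjusted p = 0.00086). The intermediate filament gene Vim had 1501 and 1095 CPM in vehicle and 1189 and 1518 CPM with TGFB2 (0.04 ± 0.26, adjusted p = 0.92) and the N-cadherin gene Cdh2 had 77.5 and 68.9 CPM in vehicle and 80.5 and 58.5 CPM with TGFB2 (-0.09 ± 0.15, adjusted p = 0.69).

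Contractile genes of smooth muscle rose in 11 of 24 cases and fell in 4 (7 and 3 unpaired), with a median of 0.59. Acta2, the smooth muscle actin gene on chromosome 19 from 34315581 to 34329826, had 639.5 and 344 CPM in vehicle and 3038 and 2112 CPM with TGFB2, and its locus overlaps the entry AK080187. Both TGFB2 values were above both vehicle values (2.42 ± 0.37, adjusted p = 0.00019). Cnn1, calponin 1, had 4.5 and 3.64 CPM in vehicle and 59.3 and 33.2 CPM with TGFB2, with a clear gap (3.46 ± 0.26, adjusted p = 8.1e-07). Tagln, the actin-binding SM22 gene whose entry overlaps Pcsk7, had 707 and 333 CPM in vehicle and 1566 and 1043 CPM with TGFB2 (1.39 ± 0.32, adjusted p = 0.0034, unpaired adjusted p = 0.13, adjusted p = 0.051 without vehicle replicate 2). In each of Acta2, Cnn1 and Tagln, replicate 1 was above replicate 2 in both groups. Myl9, a regulatory myosin light chain, had 110.3 and 49.5 CPM in vehicle and 418 and 291 CPM with TGFB2 (2.23 ± 0.34, adjusted p = 0.00018). Cald1, caldesmon, had 575 and 663 CPM in vehicle and 1302 and 1383 CPM with TGFB2 (1.11 ± 0.24, adjusted p = 0.0021). Mylk, the kinase that phosphorylates that light chain, was lower, at 168 and 256 CPM in vehicle and 46.3 and 70.05 CPM with TGFB2 (-1.87 ± 0.23, adjusted p = 3.3e-05), and so was the smoothelin gene Smtn, at 301 and 266 CPM in vehicle and 95.6 and 91.9 CPM with TGFB2 (-1.58 ± 0.20, adjusted p = 3.9e-05). Myh11, the myosin heavy chain of mature smooth muscle, did not pass the test (0.539 and 0.486 CPM in vehicle and 1.64 and 1.02 CPM with TGFB2, 1.31 ± 0.51, adjusted p = 0.059). The regulator gene Srf had 131 and 82.7 CPM in vehicle and 124 and 96.4 CPM with TGFB2 (0.06 ± 0.20, adjusted p = 0.84).

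The CArG box, the element bound by serum response factor (10 letters, searched on both strands), lay in the windows of 4 of the 19 contractile genes with a RefSeq window, against 1.62% of the 9714 tested genes with one. Myl9 and Cnn2 were the holders that rose, and Myl6 and Srf were holders that were not called. The box lay in 2 of the 8 contractile risers with a window and in 0 of the 4 that fell. These numbers are too small to say whether the motif separates risers from the others. All 4 holders are shown with the box in capitals. Tagln and Myh11 had no window in the table.
Myl9, chr2:156775243-156775372, plus strand: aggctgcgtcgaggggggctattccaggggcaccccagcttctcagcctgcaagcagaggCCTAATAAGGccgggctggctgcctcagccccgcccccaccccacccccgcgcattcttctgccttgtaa
Cnn2, chr10:79988484-79988599, plus strand: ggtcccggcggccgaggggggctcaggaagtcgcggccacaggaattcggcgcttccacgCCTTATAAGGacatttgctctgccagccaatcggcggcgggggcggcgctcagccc
Myl6, chr10:128493010-128493119, minus strand: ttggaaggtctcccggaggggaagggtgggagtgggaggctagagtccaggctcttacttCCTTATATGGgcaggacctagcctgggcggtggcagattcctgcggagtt
Srf, chr17:46556163-46556304, minus strand: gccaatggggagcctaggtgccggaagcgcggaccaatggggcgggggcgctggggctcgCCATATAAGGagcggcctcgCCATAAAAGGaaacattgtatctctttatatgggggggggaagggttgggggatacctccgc
Over all genes the box was found in 1.69% of those that rose and 1.45% of those that fell.

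In the wider actin and focal adhesion list 7 of 25 rose and 2 fell (6 and 0 unpaired). The share called, 36%, lay near the 34.7% of all genes tested and is no result about the list. Fblim1, a filamin-binding adapter, had 6.97 and 4.86 CPM in vehicle and 47.2 and 27.6 CPM with TGFB2 (2.63 ± 0.23, adjusted p = 1.9e-06). Pdlim7 had 261 and 199 CPM in vehicle and 670.2 and 587 CPM with TGFB2 (1.45 ± 0.26, adjusted p = 0.00054) and Palld (palladin), an actin-bundling scaffold, had 92.2 and 96.5 CPM in vehicle and 259 and 244 CPM with TGFB2 (1.41 ± 0.23, adjusted p = 0.00029). All were higher in each TGFB2 library. Actb had 5263 and 8375 CPM in vehicle and 6570 and 9777 CPM with TGFB2 (0.27 ± 0.21, adjusted p = 0.35).

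Collagen genes moved strongly in both directions, with 17 of 26 higher and 5 lower (13 and 5 unpaired) and a median of 1.71. Col11a1, a minor fibrillar chain best known from cartilage, on chromosome 3 from 113733458 to 113923244, had 5.44 and 2.15 CPM in vehicle and 794 and 418 CPM with TGFB2. It was nearly silent in vehicle and abundant in both TGFB2 libraries (7.34 ± 0.54, adjusted p = 1e-06). The entry AK132829, which lies within the same locus, rose with it. Col5a2, which pairs with type I fibrils, had 1009 and 589 CPM in vehicle and 2652 and 2628 CPM with TGFB2 (1.79 ± 0.29, adjusted p = 0.0003). Col8a1, a short-chain network collagen, had 157 and 187 CPM in vehicle and 781 and 1145 CPM with TGFB2 (2.48 ± 0.27, adjusted p = 1.2e-05). Col12a1, a collagen on fibril surfaces, had 135 and 71.8 CPM in vehicle and 513 and 428 CPM with TGFB2 (2.25 ± 0.33, adjusted p = 0.0001). Col18a1, the basement membrane collagen that yields endostatin, had 26.7 and 27.7 CPM in vehicle and 230.5 and 252 CPM with TGFB2, with both values far above vehicle (3.15 ± 0.33, adjusted p = 7.1e-06). Of the basement membrane collagen IV genes, the low Col4a4 had 3.33 and 3.82 CPM in vehicle and 24.4 and 15.7 CPM with TGFB2 (2.45 ± 0.24, adjusted p = 4.5e-06). The abundant Col4a1 changed less, and had 1454 and 1166 CPM in vehicle and 2476 and 2285 CPM with TGFB2 (0.88 ± 0.27, adjusted p = 0.02, unpaired adjusted p = 0.17, adjusted p = 0.17 without TGFB2 replicate 2).

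The principal fibrillar collagens did not follow. Col3a1 had 6831 and 4167 CPM in vehicle and 1940 and 2159 CPM with TGFB2, lower in both TGFB2 libraries (-1.39 ± 0.27, adjusted p = 0.0012), and it had the largest loss in CPM of all genes called. Col1a2 had 5192 and 3432 CPM in vehicle and 2144 and 1785 CPM with TGFB2 (-1.12 ± 0.21, adjusted p = 0.00089). Col1a1, the other chain of type I collagen, had 7887 and 4518 CPM in vehicle and 5853 and 4462 CPM with TGFB2 with overlapping groups (-0.24 ± 0.26, adjusted p = 0.52). Collagen VI chains diverged most: Col6a1 had 1007 and 670.1 CPM in vehicle and 46.6 and 63.4 CPM with TGFB2 (-3.91 ± 0.31, adjusted p = 1.2e-06). Col6a2 had 372 and 317 CPM in vehicle and 9.29 and 15.1 CPM with TGFB2 (-4.85 ± 0.32, adjusted p = 2.4e-07). Col6a3 had 2.61 and 2.32 CPM in vehicle and 4.8 and 11.1 CPM with TGFB2 (1.63 ± 0.38, adjusted p = 0.0042, adjusted p = 0.089 without TGFB2 replicate 2). Thus Col6a1 and Col6a2 fell steeply and the low Col6a3 was higher with TGFB2, yet Col6a1 stayed above Col6a3.

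**Figure D3:**
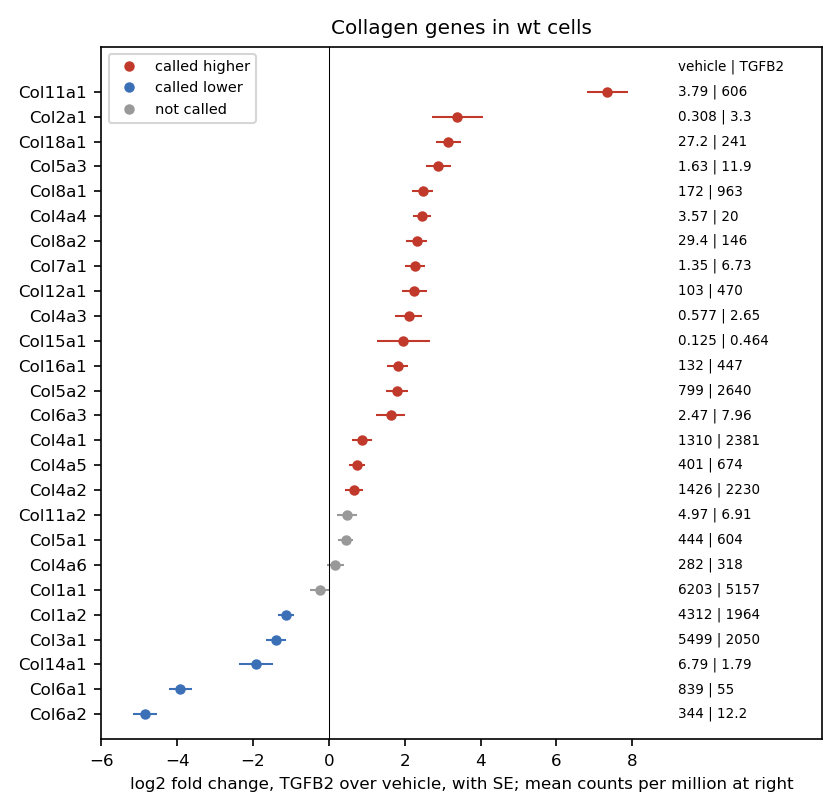
Log2 fold change of TGFB2 over vehicle with its SE for the 26 collagen genes tested in wt cells, ordered by size, with the mean CPM of the 2 vehicle and 2 TGFB2 libraries at the right. Col11a1 stands highest at 7.34 and Col6a2 lowest at -4.85, and Col1a1 lies near 0.

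Genes for collagen crosslinking and elastic fibres were divided, 7 of 24 higher and 6 lower (6 and 5 unpaired). Mfap4, a microfibril-associated glycoprotein, had 3.46 and 2.08 CPM in vehicle and 64.7 and 79.6 CPM with TGFB2 (4.72 ± 0.28, adjusted p = 1.6e-07). The lysyl hydroxylase gene Plod2 had 69.8 and 69 CPM in vehicle and 332 and 389 CPM with TGFB2 (2.38 ± 0.21, adjusted p = 2.2e-06). Eln, the elastin gene, went down from 418 and 641 to 41.8 and 83.8 CPM (-3.11 ± 0.40, adjusted p = 5.4e-05). Fbn2 (fibrillin 2) fell from 49 and 33.3 to 6.92 and 5.74 CPM (-2.67 ± 0.27, adjusted p = 6e-06). The lysyl oxidase gene Loxl1 fell from 866 and 556 to 286 and 201 CPM (-1.54 ± 0.28, adjusted p = 0.0006). Each of these falls left no overlap between groups. Lox itself rose, from 1668 and 1653 to 2806 and 2756 CPM (0.74 ± 0.20, adjusted p = 0.0098, adjusted p = 0.09 without TGFB2 replicate 1).

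Hyaluronan and proteoglycan genes rose in 11 of 23 cases and fell in 7 (9 and 5 unpaired). Has2, the hyaluronan synthase needed for cardiac cushion formation, had 3.15 and 6.14 CPM in vehicle and 53.6 and 83.2 CPM with TGFB2, and its locus overlaps the antisense entry Has2as, so reads of the pair cannot be told apart. Both TGFB2 values exceeded both vehicle values by far (3.91 ± 0.21, adjusted p = 8.3e-08). Cd44, a hyaluronan receptor, had 21.7 and 29.4 CPM in vehicle and 146 and 149 CPM with TGFB2 (2.54 ± 0.26, adjusted p = 6.4e-06). Vcan, the hyaluronan-binding proteoglycan versican, had 1.71 and 1.11 CPM in vehicle and 46.3 and 17.6 CPM with TGFB2 (4.39 ± 0.42, adjusted p = 5.2e-06). Hyal1, a hyaluronidase, had 38.2 and 28.2 CPM in vehicle and 287 and 279 CPM with TGFB2 (3.11 ± 0.29, adjusted p = 3.6e-06). Synthesis, binding and breakdown genes thus all included risers. Small leucine-rich proteoglycans differed, since Fmod (fibromodulin) fell from 1184 and 1265 to 189 and 319 CPM (-2.33 ± 0.25, adjusted p = 8.8e-06). Bgn (biglycan) rose from 1292 and 916 to 2179 and 1780 CPM (0.86 ± 0.19, adjusted p = 0.0033, unpaired adjusted p = 0.13).

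Wisp1, a CCN matricellular gene on chromosome 15 from 66722955 to 66754761, had 11.6 and 9.4 CPM in vehicle and 767 and 787 CPM with TGFB2, with the 2 groups far apart and the replicates close (6.21 ± 0.29, adjusted p = 2.6e-08). The entry Elm1 has the same locus and nearly the same reads and is not a second gene. Of 16 matricellular genes 7 rose and 4 fell (5 and 2 unpaired). Fn1, the fibronectin gene, had 7078 and 4905 CPM in vehicle and 3516 and 2837 CPM with TGFB2 (-0.89 ± 0.25, adjusted p = 0.014, unpaired adjusted p = 0.19, adjusted p = 0.14 without TGFB2 replicate 1). Tnc, tenascin C, had 589 and 674 CPM in vehicle and 294 and 427 CPM with TGFB2 (-0.80 ± 0.24, adjusted p = 0.019, unpaired adjusted p = 0.056, adjusted p = 0.23 without TGFB2 replicate 1); both were lower in each TGFB2 library. Postn (periostin), which marks valve and scar fibroblasts, rose from 11 to 113 reads per group (3.69 ± 0.46), and Ccbe1, a secreted factor of lymphatic growth, fell (8.32 and 14.1 CPM in vehicle and 0.607 and 0.618 CPM with TGFB2, -4.19 ± 0.45). Sparc, an abundant collagen-binding protein, had 7058 and 6851 CPM in vehicle and 6304 and 7648 CPM with TGFB2 (-0.01 ± 0.22, adjusted p = 0.98).

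Laminin and integrin genes rose in 12 of 23 cases and fell in 3 (9 and 3 unpaired), with a median of 0.96. Itgb4, the integrin chain of hemidesmosomes, had 27.3 and 20.9 CPM in vehicle and 379.8 and 382 CPM with TGFB2, and its partner Itga6 had 7.6 and 3.64 CPM in vehicle and 41.6 and 29.1 CPM with TGFB2, so both chains of this laminin receptor were higher (4.00 ± 0.35, adjusted p = 2.1e-06 and 2.70 ± 0.28, adjusted p = 6.4e-06). Itgb5 and Itgav, chains of a vitronectin receptor that can release latent TGF-beta, also rose (41.6 and 24.7 CPM in vehicle and 149 and 134 CPM with TGFB2, 2.15 ± 0.27, and 121 and 129.7 CPM in vehicle and 261 and 249 CPM with TGFB2, 1.02 ± 0.19). Laminin chains differed in direction: Lama4 fell from 62.1 and 50.9 to 9.47 and 9.23 CPM (-2.58 ± 0.21, adjusted p = 1.2e-06). Lamb2 fell from 391 and 235 to 90.2 and 78.3 CPM (-1.83 ± 0.20, adjusted p = 1.3e-05). Lamb1 rose from 326 and 252 to 857 and 764 CPM (1.50 ± 0.21, adjusted p = 7.2e-05).

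Matrix protease and inhibitor genes rose in 14 of 30 cases and fell in 6 (11 and 3 unpaired). Mmp2, a gelatinase, had 312 and 167 CPM in vehicle and 1750 and 1489 CPM with TGFB2 (2.82 ± 0.28, adjusted p = 5.2e-06). Mmp14, the membrane protease that activates it, had 304 and 216 CPM in vehicle and 1410 and 897 CPM with TGFB2 (2.14 ± 0.23, adjusted p = 1.1e-05). Mmp10, a stromelysin, had 0.315 and 0.451 CPM in vehicle and 17.4 and 28.8 CPM with TGFB2 (5.92 ± 0.36, adjusted p = 1.7e-07). All were above vehicle in both libraries. Mmp17 moved opposite, at 91.1 and 101 CPM in vehicle and 7.53 and 7.46 CPM with TGFB2 (-3.68 ± 0.25, adjusted p = 3e-07). Serpine2, an inhibitor of plasminogen activators, rose (11.1 and 6.52 CPM in vehicle and 121 and 121 CPM with TGFB2, 3.84 ± 0.41, adjusted p = 1.2e-05), and the tissue plasminogen activator gene Plat fell (122 and 123 CPM in vehicle and 36.5 and 50.9 CPM with TGFB2, -1.48 ± 0.24, adjusted p = 0.00029). The urokinase gene Plau had 32.7 and 55 CPM in vehicle and 34.9 and 46.3 CPM with TGFB2 (-0.10 ± 0.24, adjusted p = 0.78).

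In the Wnt list 6 of 26 rose and 11 fell (6 and 9 unpaired). The ligand genes Wnt11 and Wnt9a were higher, Wnt11 at 23 and 16.1 CPM in vehicle and 114 and 87.4 CPM with TGFB2 (2.37 ± 0.20, adjusted p = 1.6e-06) and Wnt9a at 58.2 and 34.4 CPM in vehicle and 249.7 and 200 CPM with TGFB2 (2.31 ± 0.23, adjusted p = 5.7e-06). Among receptor genes Fzd7 fell from 119 and 108 to 39.6 and 34 CPM (-1.63 ± 0.17, adjusted p = 5.9e-06). Fzd1 fell from 115 and 111 to 45.2 and 43.4 CPM (-1.35 ± 0.15, adjusted p = 1.2e-05), while Fzd10 went from 3 reads in vehicle to 272 with TGFB2, a ratio of 111 (95% exact counting interval 37.7 to 544). Sfrp2, a secreted Wnt modulator, had 1124 and 907 CPM in vehicle and 70.2 and 88.6 CPM with TGFB2, a marked loss in both libraries (-3.70 ± 0.39, adjusted p = 1e-05). Axin2, a feedback gene of the beta-catenin branch, had 12.9 and 12.2 CPM in vehicle and 8.93 and 12.8 CPM with TGFB2 (-0.22 ± 0.26, adjusted p = 0.56).

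Fibroblast and platelet-derived growth factor genes rose in 9 of 23 cases and fell in 6 (7 and 6 unpaired). Most ligand genes called were higher, and the receptor genes called were lower. Pdgfa had 58 and 41.2 CPM in vehicle and 124 and 177 CPM with TGFB2 (1.61 ± 0.31, adjusted p = 0.0013). Its receptor gene Pdgfra, which marks the fibroblast branch of the epicardium, had 121 and 249 CPM in vehicle and 27.3 and 61.2 CPM with TGFB2 (-2.08 ± 0.26, adjusted p = 2.9e-05). Fgfr2 and Fgfr3 fell (168 and 145 CPM in vehicle and 45.2 and 48.7 CPM with TGFB2, -1.73 ± 0.22, and 19.1 and 16.4 CPM in vehicle and 7.89 and 7.95 CPM with TGFB2, -1.16 ± 0.18), whereas Fgf18 and Fgf21 rose from low levels (2.74 and 2.5 CPM in vehicle and 11.7 and 10.6 CPM with TGFB2, 2.09 ± 0.29, and 1.39 and 1.42 CPM in vehicle and 8.26 and 13.3 CPM with TGFB2, 2.91 ± 0.29). The ligand gene Pdgfd fell, however (-1.98 ± 0.23). Pdgfrb, the mural cell receptor, had 20.4 and 25.4 CPM in vehicle and 23.2 and 23.3 CPM with TGFB2 (0.01 ± 0.20, adjusted p = 0.97).

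Of 20 angiogenic genes 10 rose and 5 fell (7 and 4 unpaired). Nrp1, a co-receptor for VEGF and semaphorins, had 48 and 49.5 CPM in vehicle and 215 and 205 CPM with TGFB2 (2.10 ± 0.18, adjusted p = 1.7e-06). Angptl2 had 8.54 and 4.75 CPM in vehicle and 112 and 87.2 CPM with TGFB2 (3.96 ± 0.37, adjusted p = 4.5e-06). Cxcl12, a chemokine that the epicardium makes for growing coronary vessels, was higher in both TGFB2 libraries (149.9 and 251 CPM in vehicle and 458 and 586 CPM with TGFB2, 1.43 ± 0.27, adjusted p = 0.00088, unpaired adjusted p = 0.081). The VEGF-D gene, listed as Figf, fell from 104 and 123 to 27.2 and 47.1 CPM (-1.64 ± 0.26, adjusted p = 0.00027).

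The insulin-like growth factor (IGF) list, which also holds Dlk1, included some of the steepest falls, with 7 of 19 lower and 5 higher (7 and 0 unpaired). Dlk1, an imprinted gene for a Notch-like membrane protein, on chromosome 12 from 110691033 to 110701546, had 1779 and 1765 CPM in vehicle and 36.1 and 56.3 CPM with TGFB2, lower by far in both libraries (-5.30 ± 0.33, adjusted p = 1.9e-07). Igfbp4 had 1468 and 1334 CPM in vehicle and 63.8 and 118 CPM with TGFB2 (-4.02 ± 0.29, adjusted p = 6.3e-07). Igfbp6 had 313 and 341 CPM in vehicle and 17.2 and 26.9 CPM with TGFB2 (-3.94 ± 0.24, adjusted p = 1.6e-07). Igfbp3 had 1028 and 473 CPM in vehicle and 273 and 187 CPM with TGFB2 (-1.64 ± 0.24, adjusted p = 0.0001). Igfbp4, Igfbp6 and Igfbp3 encode binding proteins that hold IGF ligands outside the cell, and none of their TGFB2 values reached the vehicle range. H19, an imprinted noncoding RNA, also fell (213 and 210.5 CPM in vehicle and 38.2 and 45.1 CPM with TGFB2, -2.36 ± 0.48, adjusted p = 0.002). Igf1 had 55.4 and 78.4 CPM in vehicle and 97.3 and 153 CPM with TGFB2 (0.89 ± 0.27, adjusted p = 0.02, unpaired adjusted p = 0.13, adjusted p = 0.13 without TGFB2 replicate 2).

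Notch pathway genes rose in 7 of 15 cases and fell in 2, also unpaired. Notch3, the receptor of vascular smooth muscle, had 33 and 14 CPM in vehicle and 255 and 175 CPM with TGFB2 (3.31 ± 0.45, adjusted p = 8.5e-05). The ligand gene Jag1 had 10.8 and 8.39 CPM in vehicle and 35 and 23.4 CPM with TGFB2 (1.58 ± 0.23, adjusted p = 0.00012). Both exceeded vehicle in each library. Of their target genes Hes1 rose (16.4 and 25.2 CPM in vehicle and 36.4 and 45.6 CPM with TGFB2, 0.99 ± 0.16) and Heyl went from 0 reads in vehicle to 25 with TGFB2, at least 10.2-fold higher against a floor of 3 reads over the vehicle group. Hippo pathway genes rose in 7 of 17 cases and fell in 1 (6 and 1 unpaired), among them the adapter gene Amotl1 (125 and 98.5 CPM in vehicle and 408 and 337 CPM with TGFB2, 1.74 ± 0.25) and the phosphatase gene Ptpn14 (306 and 233 CPM in vehicle and 703 and 631 CPM with TGFB2, 1.32 ± 0.27). The co-activator genes Yap1 and Wwtr1 were not called (-0.12 ± 0.15, adjusted p = 0.58 and 0.35 ± 0.21, adjusted p = 0.24).

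Cytokine and receptor genes divided, with 8 of 24 higher and 9 lower (7 and 7 unpaired). Il6 rose from 7 to 253 reads per group (0.0899 and 0.173 CPM in vehicle and 6.25 and 6.62 CPM with TGFB2, 5.51 ± 0.46, adjusted p = 1.4e-06). Il6st, the signalling receptor that its family shares, fell from 579 and 640.1 to 187 and 229.7 CPM (-1.55 ± 0.19, adjusted p = 2.6e-05). Lif, another ligand of that receptor, was higher at 28.9 and 18.7 CPM in vehicle and 78.3 and 69.7 CPM with TGFB2 (1.66 ± 0.21, adjusted p = 3.5e-05). The monocyte chemokine genes Ccl2 and Ccl7 fell, Ccl2 from 195 and 199.9 to 36 and 30.6 CPM (-2.56 ± 0.46, adjusted p = 0.00077). Ccl7 fell from 41.7 and 64.9 to 6.31 and 14.3 CPM (-2.43 ± 0.24, adjusted p = 4.6e-06). Cxcl5 had 63 reads in vehicle and 0 with TGFB2, at least 17.1-fold lower, but its vehicle values were 0.27 and 1.98 CPM and the call was lost unpaired and with 1 library left out (adjusted p = 0.095 and up to 0.24).

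Complement and acute-phase genes fell in 11 of 16 cases and rose in 1 (10 and 1 unpaired), with a median of -1.32. C3, the central complement component, had 559.6 and 349 CPM in vehicle and 51.7 and 63.8 CPM with TGFB2 (-2.91 ± 0.27, adjusted p = 3.6e-06). Saa3, an acute-phase serum amyloid, had 59.9 and 71 CPM in vehicle and 3.16 and 9.28 CPM with TGFB2 (-3.58 ± 0.34, adjusted p = 3.9e-06). Serping1, the inhibitor of C1, had 472 and 696 CPM in vehicle and 147 and 275 CPM with TGFB2 (-1.49 ± 0.23, adjusted p = 0.00021). All were below vehicle in both libraries. Cd55, which protects cells from complement, was the riser (19.9 and 18.1 CPM in vehicle and 63.1 and 53.4 CPM with TGFB2, 1.61 ± 0.19, adjusted p = 1.9e-05). Interferon-stimulated genes fell in 10 of 30 cases and rose in 2 (5 and 0 unpaired). The share called, 40%, lay near the 34.7% of all genes tested and is no result about the list. Ifit3 had 112 and 174 CPM in vehicle and 25.6 and 55.2 CPM with TGFB2 (-1.82 ± 0.40, adjusted p = 0.0034, adjusted p = 0.059 without vehicle replicate 2). The RNA sensor gene Ifih1 had 52.5 and 71.1 CPM in vehicle and 27.7 and 28.6 CPM with TGFB2 (-1.14 ± 0.20, adjusted p = 0.00042). Antigen presentation genes did not follow: B2m had 2590 and 3830 CPM in vehicle and 3473 and 5284 CPM with TGFB2 (0.44 ± 0.20, adjusted p = 0.096), and the peptide transporter gene Tap1 was higher (187 and 152 CPM in vehicle and 333 and 296 CPM with TGFB2, 0.90 ± 0.22, adjusted p = 0.006, unpaired adjusted p = 0.093, adjusted p = 0.062 without TGFB2 replicate 2).

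Mitotic genes fell in 24 of 30 cases and rose in none (17 and 0 unpaired), with a median of -1.11. Mki67, the proliferation marker, had 173 and 228 CPM in vehicle and 49.6 and 53.3 CPM with TGFB2 (-2.00 ± 0.36, adjusted p = 0.00077). Ccnb2, a mitotic cyclin, had 112 and 131 CPM in vehicle and 31.3 and 50.1 CPM with TGFB2 (-1.62 ± 0.20, adjusted p = 3.1e-05). The spindle motor gene Kif2c had 31.6 and 26 CPM in vehicle and 6.62 and 5.39 CPM with TGFB2 (-2.27 ± 0.28, adjusted p = 3.1e-05). All 3 were lower in each TGFB2 library. Genes of DNA replication moved less, 9 of 35 lower and 1 higher (6 and 0 unpaired) with a median of -0.18. The share called, 28.6%, was below the 34.7% of all genes tested. Ccne1 fell from 25.4 and 17.4 to 9.71 and 8.21 CPM (-1.23 ± 0.19, adjusted p = 0.00018). Tk1, the thymidine kinase gene, fell from 58.2 and 55.4 to 24.6 and 26.2 CPM (-1.15 ± 0.18, adjusted p = 0.00018). The helicase subunit Mcm2 had 222 and 199 CPM in vehicle and 140.3 and 153 CPM with TGFB2 (-0.51 ± 0.23, adjusted p = 0.1), and Rrm2, a ribonucleotide reductase subunit, was the riser (122 and 157 CPM in vehicle and 186 and 312 CPM with TGFB2, 0.81 ± 0.26, adjusted p = 0.027, unpaired adjusted p = 0.18, adjusted p = 0.16 without TGFB2 replicate 2).

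Inhibitors of cyclin-dependent kinases were among the risers. Cdkn1a (p21), on chromosome 17 from 29227931 to 29237667, had 889.8 and 707 CPM in vehicle and 2137 and 2403 CPM with TGFB2, higher in both libraries (1.50 ± 0.23, adjusted p = 0.00017). Cdkn2b (p15), a gene long known to respond to TGF-beta, had 213 and 176 CPM in vehicle and 912 and 767 CPM with TGFB2 (2.11 ± 0.22, adjusted p = 7.2e-06), and the neighbouring Cdkn2a (p16 and p19Arf) had 419.8 and 394 CPM in vehicle and 1319 and 1524 CPM with TGFB2 (1.80 ± 0.21, adjusted p = 1.9e-05). Ccnd1, cyclin D1, fell (91.9 and 76.2 CPM in vehicle and 35.4 and 42.9 CPM with TGFB2, -1.09 ± 0.26, adjusted p = 0.0043, adjusted p = 0.064 without TGFB2 replicate 1). Over the 16 genes of this list 4 rose and 5 fell (4 and 3 unpaired). Of the 43 lists, p53 targets had the largest share of risers: 20 of 27 rose and 1 fell (15 and 1 unpaired), with a median of 1.26. Mdm2, which encodes the ligase that degrades p53, had 289.9 and 295 CPM in vehicle and 1927 and 1919 CPM with TGFB2, the replicates nearly equal and the groups far apart (2.72 ± 0.28, adjusted p = 6.4e-06). Perp, a desmosomal effector, had 20.4 and 11.2 CPM in vehicle and 256 and 209 CPM with TGFB2 (3.92 ± 0.30, adjusted p = 1e-06). Ccng1 (cyclin G1) had 193 and 208 CPM in vehicle and 630.2 and 774 CPM with TGFB2 (1.79 ± 0.19, adjusted p = 8.7e-06). Bax, an effector of apoptosis, had 315 and 211 CPM in vehicle and 602 and 494 CPM with TGFB2 (1.06 ± 0.23, adjusted p = 0.0024, adjusted p = 0.053 without vehicle replicate 2). Sesn1, a stress-response gene, was the exception (37.2 and 40.7 CPM in vehicle and 15.8 and 24.4 CPM with TGFB2, -0.96 ± 0.22, adjusted p = 0.0033, adjusted p = 0.063 without TGFB2 replicate 1).

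**Figure D4:**
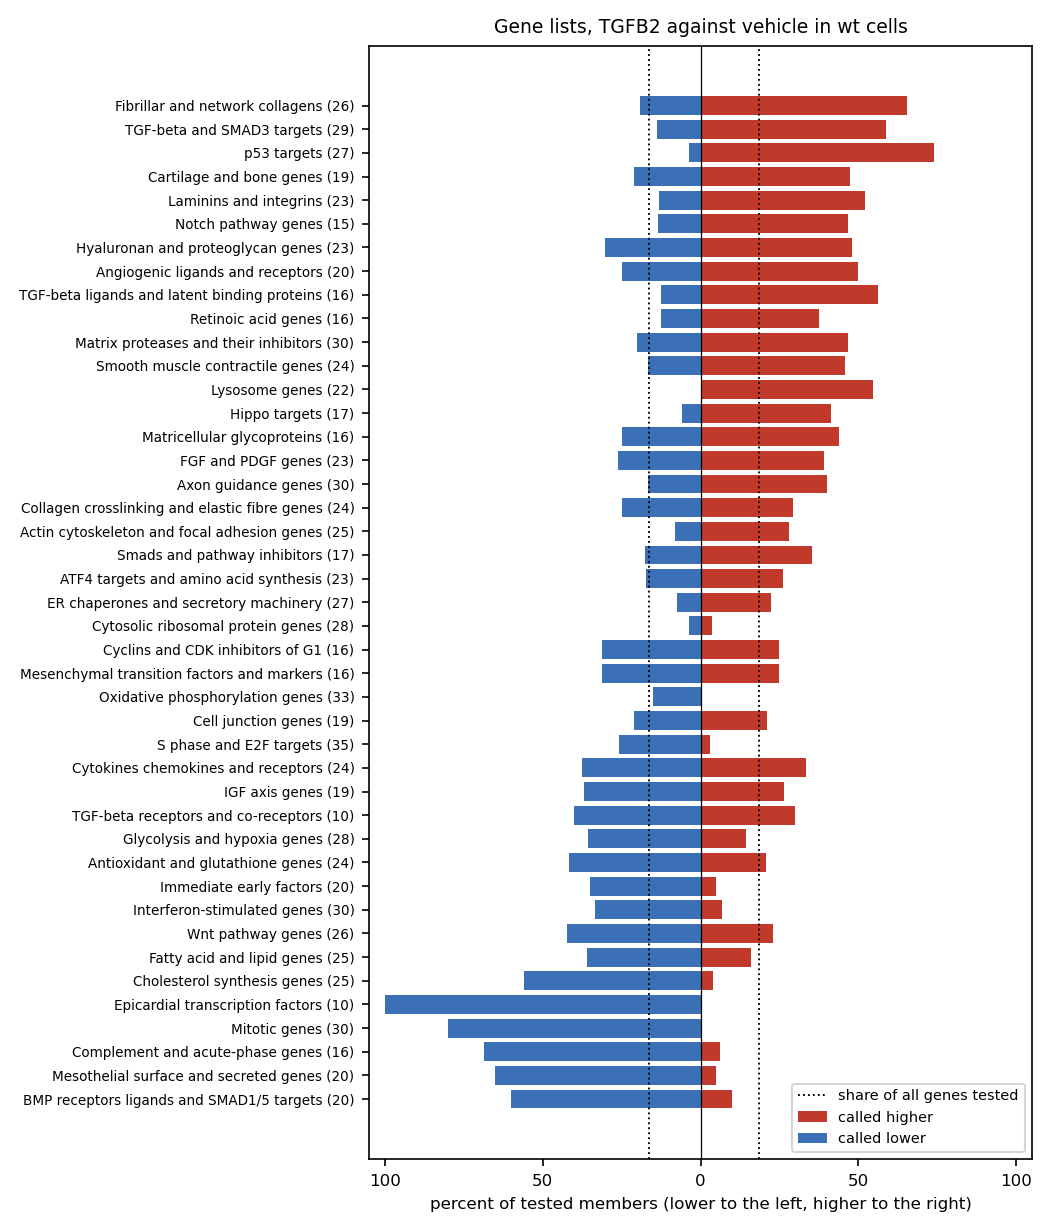
Percent of tested members called higher (red, to the right) and lower (blue, to the left) with TGFB2 in wt cells for 43 gene lists, ordered by median log2 fold change, with the number tested in brackets; dotted lines mark the 18.4% and 16.3% of all genes tested. The collagen, SMAD3 target and p53 target lists stand at the top, and the BMP, mesothelial and complement lists at the bottom.

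Cholesterol synthesis and uptake genes fell in 14 of 25 cases and rose in 1 (10 and 0 unpaired), with a median of -0.92. Srebf2, the transcription factor of this pathway, had 186 and 167 CPM in vehicle and 70.1 and 71.8 CPM with TGFB2 (-1.30 ± 0.17, adjusted p = 4.6e-05). Hmgcs1, an early enzyme, fell from 58.4 and 73.1 to 21.8 and 25.4 CPM (-1.48 ± 0.20, adjusted p = 7.5e-05). In the fatty acid list 9 of 25 fell and 4 rose (6 and 3 unpaired). Scd1, a desaturase, fell from 83.8 and 83 to 11.9 and 15.2 CPM (-2.62 ± 0.33, adjusted p = 3.8e-05). Plin2, a lipid droplet coat protein, rose from 69.1 and 63.3 to 200.4 and 194 CPM (1.58 ± 0.22, adjusted p = 6.8e-05). Acsbg1, an acyl-CoA synthetase gene, had 0 reads in vehicle and 249 with TGFB2, at least 102-fold higher.

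Lysosome genes rose in 12 of 22 cases and fell in none (7 and 0 unpaired), with a median of 0.57. The cathepsin gene Ctsd had 828 and 690.2 CPM in vehicle and 2275 and 2484 CPM with TGFB2 (1.65 ± 0.21, adjusted p = 3.9e-05). The peptidase gene Tpp1 had 129 and 146 CPM in vehicle and 524 and 609 CPM with TGFB2 (2.04 ± 0.20, adjusted p = 5.4e-06). Both were higher in both libraries. Antioxidant genes fell more often than they rose, 10 against 5 of 24 (5 and 3 unpaired): Gclm, a subunit of the enzyme that starts glutathione synthesis, fell from 46.1 and 39.96 to 12.3 and 9.67 CPM (-1.98 ± 0.17, adjusted p = 2e-06). Gsto1, an omega-class glutathione transferase, rose from 52.5 and 71.8 to 515 and 576 CPM (3.15 ± 0.25, adjusted p = 1.2e-06). Of 28 glycolysis and hypoxia genes 10 fell and 4 rose (6 and 2 unpaired). The largest of these were Aldoc, a brain-type aldolase, at 181 and 214 CPM in vehicle and 3.34 and 2.87 CPM with TGFB2 (-5.99 ± 0.45, adjusted p = 1.2e-06), and Stc1, a secreted glycoprotein, at 30.9 and 98.9 CPM in vehicle and 0.304 and 1.02 CPM with TGFB2 (-6.66 ± 0.55, adjusted p = 2e-06). Vehicle replicate 2 of Stc1 was well above replicate 1, and both were far above TGFB2.

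Cartilage, bone and tendon genes rose in 9 of 19 cases and fell in 4 (8 and 4 unpaired). Runx1, a runt factor, had 13.9 and 11.6 CPM in vehicle and 114 and 114 CPM with TGFB2 (3.16 ± 0.30, adjusted p = 3.7e-06). Its relative Runx2, the factor of bone, had 13.3 and 15.8 CPM in vehicle and 8.26 and 8.26 CPM with TGFB2 (-0.82 ± 0.21, adjusted p = 0.0079, adjusted p = 0.084 without TGFB2 replicate 2), so the pair moved in opposite directions. The tendon factor genes Mkx and Scx rose (3.51 and 2.32 CPM in vehicle and 29.3 and 23.7 CPM with TGFB2, 3.20 ± 0.37, and 9.3 and 3.43 CPM in vehicle and 38 and 23.7 CPM with TGFB2, 2.35 ± 0.32). Tnfrsf11b, the decoy receptor osteoprotegerin, went from 9 reads in vehicle to 663 with TGFB2 (6.58 ± 0.44, adjusted p = 3e-07). Of 16 retinoic acid genes 6 rose and 2 fell (6 and 0 unpaired). The cellular retinoic acid binding protein genes both rose: Crabp1 had 0.629 and 0.555 CPM in vehicle and 29 and 20.7 CPM with TGFB2 (5.35 ± 0.28, adjusted p = 8.1e-08). Crabp2 had 2.52 and 1.21 CPM in vehicle and 10.1 and 12.3 CPM with TGFB2 (2.58 ± 0.36, adjusted p = 8.7e-05).

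Outside the lists, the largest rises among genes with at least 20 reads in vehicle and a mean of at least 5 CPM included Scn4b, a sodium channel subunit (0.674 and 0.347 CPM in vehicle and 26.1 and 33.8 CPM with TGFB2, 5.92 ± 0.61, adjusted p = 9.9e-06) and Dapk2, a death-associated kinase whose locus also carries the entry DAPK2 (1.21 and 1.53 CPM in vehicle and 56.7 and 76.9 CPM with TGFB2, 5.59 ± 0.31, adjusted p = 9.4e-08). The transporter gene Slc29a4 rose similarly (1.53 and 1.07 CPM in vehicle and 50.03 and 42.7 CPM with TGFB2, 5.16 ± 0.45). All had vehicle values near 1 CPM. From under 20 reads in vehicle, Ctsw, a cathepsin best known from lymphocytes, reached 34.9 and 50.5 CPM (6.83 ± 0.41), Sprr3, a small proline-rich protein of squamous epithelium, reached 17.1 and 15.5 CPM (5.68 ± 0.38) and Fam159b reached 14.1 and 17.4 CPM (6.64 ± 0.44).

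Among the falls under the same rule were Lingo1, a membrane protein known from neurons (38.3 and 51.5 CPM in vehicle and 1.64 and 1.85 CPM with TGFB2, -4.67 ± 0.30, adjusted p = 2.2e-07), Gsta3, an alpha-class glutathione transferase (40.7 and 55.6 CPM in vehicle and 1.34 and 3.05 CPM with TGFB2, -4.47 ± 0.29, adjusted p = 2.2e-07), and Lgals2, a galectin gene that overlaps Cdc42ep1 (16.9 and 28.6 CPM in vehicle and 0.486 and 1.1 CPM with TGFB2, -4.85 ± 0.40, adjusted p = 1.3e-06). Igfbp5 fell with a large error (31 and 55.6 CPM in vehicle and 0.668 and 2.74 CPM with TGFB2, -4.61 ± 1.08, adjusted p = 0.0066, adjusted p = 0.097 without TGFB2 replicate 1). To under 20 reads went Gpr133, an adhesion receptor (11.4 and 31.4 CPM in vehicle and 0.425 and 0.221 CPM with TGFB2, -6.01 ± 0.73), the ion pump regulator genes Fxyd1 and Fxyd3 (-5.29 ± 0.81 and -6.21 ± 0.79) and Serpind1, heparin cofactor II (10.2 and 17.6 CPM in vehicle and 0.121 and 0.353 CPM with TGFB2, -5.80 ± 0.49). Aqp1, a water channel, had 793 reads in vehicle and 3 with TGFB2, a ratio of 215 with a 95% exact counting interval of 73.3 to 1.04e+03, which covers counting error only. Aebp1, a matrix protein that overlaps Pold2, had one of the largest losses in CPM (2168 and 1573 CPM in vehicle and 748 and 749.8 CPM with TGFB2, -1.30 ± 0.21, adjusted p = 0.00023).

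TGFB1, the other TGF-beta ligand tested, was given to wt cells at the same dose and time and compared with the same vehicle libraries, so its changes are set beside those of TGFB2 without an overlap. Tested directly against each other, TGFB2 and TGFB1 differed in 0 of 16835 genes (0%), with 318 genes at an unadjusted p under 0.05 and 0 called with DESeq2 or without the replicate term. The median absolute log2 difference was 0.171. Tgfbr1 had 37.1 and 47.7 CPM with TGFB1 against 67.4 and 61.4 CPM with TGFB2 (difference 0.63 ± 0.21, adjusted p = 0.99), Acta2 had 2882 and 1957 CPM against 3038 and 2112 CPM (difference 0.09 ± 0.35, adjusted p = 1) and Has2 had 39.7 and 67.8 CPM against 53.6 and 83.2 CPM (difference 0.36 ± 0.18, adjusted p = 0.99). The TGFB2 values of Tgfbr1 lay above those of TGFB1, those of Acta2 and Has2 overlapped, and none of these differences passed the test. A p above the threshold does not show that the ligands act alike.

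The dependence of the response on the line was tested as the difference between the TGFB2 effect in wt cells and that in mt cells. The mt replicate 1 libraries stood apart by a cardiomyocyte transcript: Myh6, the atrial and adult ventricular myosin heavy chain, had 14.6 and 0 CPM in mt vehicle replicates 1 and 2 and 24.5 and 0.285 CPM with TGFB2, against 0 and 0 and 0.304 and 0.177 CPM in wt. The difference between lines was called in 143 genes (0.849% of those tested), 125 with a positive and 18 with a negative difference, and 113 of them were called for TGFB2 in wt cells. Tgfbr3 had 14.6 and 18.2 CPM in mt vehicle and 11.9 and 12.1 CPM in mt cells with TGFB2, against 71 and 100.3 CPM in wt vehicle, so reads over this gene were fewer in the mt line but not absent. The sources do not say which part of the gene is deleted. Wisp1 rose in both lines, from 11.6 and 9.4 to 767 and 787 CPM in wt and from 83.7 and 79 to 519.8 and 609.8 CPM in mt (difference 3.42 ± 0.34, adjusted p = 0.00037). In vehicle both wt values were below both mt values, and with TGFB2 they were above them. Sod3, extracellular superoxide dismutase, fell in both, from 44.5 and 65.3 to 14.2 and 19.8 CPM in wt and from 52.7 and 122 to 2.14 and 3.53 CPM in mt (difference 3.20 ± 0.30, adjusted p = 0.00037, unpaired adjusted p = 0.14). Actn3, the alpha-actinin of fast muscle, fell in wt from 15.7 and 15.2 to 1.7 and 1.94 CPM, while in mt it stood at 2.65 and 1.83 CPM in vehicle and 1.99 and 1.21 CPM with TGFB2 (difference -2.55 ± 0.39, adjusted p = 0.0066, unpaired adjusted p = 0.073). For most genes above, such as Acta2 (difference 0.64 ± 0.50, adjusted p = 0.81), Cnn1 (difference -0.51 ± 0.36, adjusted p = 0.78) and Wt1 (difference -0.08 ± 0.28, adjusted p = 0.98), no difference between lines was called. Exceptions included Wnt11 (difference 2.42 ± 0.27, adjusted p = 0.00099, unpaired adjusted p = 0.069) and Fgf21 (difference 2.67 ± 0.39, adjusted p = 0.0053, unpaired adjusted p = 0.14), neither called in mt. Dapk2 rose less in mt (difference 3.565 ± 0.40, adjusted p = 0.00089, unpaired adjusted p = 0.024). Pdgfra fell further in mt (difference 2.65 ± 0.38, adjusted p = 0.005, unpaired adjusted p = 0.37). The difference was also called for Atoh8, Itgb4 and Lingo1, but not unpaired. Among the 143 genes, 15 had effects of opposite sign that were each called, 33 were called in wt only and 30 in mt only. The count was 8 without the replicate term, with 0 negative differences, and 67 without the 4 mt replicate 1 libraries, and with 1 library left out it ran from 38 (without wt vehicle replicate 2) to 395 (without mt vehicle replicate 2).

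**Figure D5:**
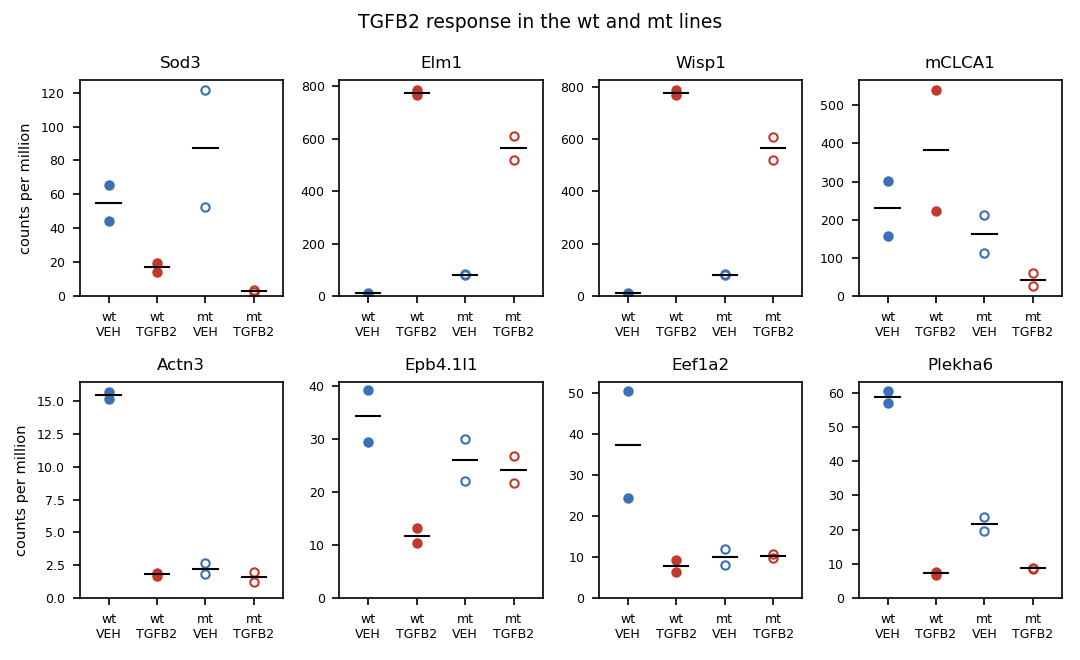
CPM in the 2 vehicle (blue) and 2 TGFB2 (red) libraries of wt cells (filled) and mt cells (open) for the 4 genes with the smallest p of the line difference in each direction, with a bar at the mean. Elm1 and Wisp1 are entries of 1 locus, and Actn3, Eef1a2 and Plekha6 are higher in wt vehicle than in the other groups.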

How the data were processed

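RNA of 16 libraries (8 groups of 2) was sequenced, and the authors deposited a pair of tables, 1 per replicate number, with a raw read count per gene entry and library and the same values as RPM (reads per 1000000). The deposited RPM equalled each count per 1000000 of its column total within 2.9e-11. Reads were aligned with TopHat and TopHat2 to the mm9 genome, per the submitters' processing notes; the counting program, gene models and strand setting are not given in the sources used here. Starts in the tables count from 0 and were converted to 1-based positions. In 1 of them, 2 entries with no gene name were left out, 27 names in a date-like form were kept but are not named, and 804 entries share their exact locus with another.

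Counts were tested in edgeR 4.0.16 (limma 3.58.1, R 4.3.3) by the quasi-likelihood F test with robust dispersion, after filterByExpr and TMM normalization, in 1 fit over all 16 libraries, with 8 group means and replicate number as a block, and Benjamini-Hochberg adjustment over 16835 genes. The block follows the pairing by replicate number; correlations of same-numbered libraries' deviations from their group means were above 0.1 in 28 of 28 pairs of groups (0.163 to 0.756, median 0.506). The SE is the absolute log2 fold change divided by the root of F. A group with 0 reads was set to a floor of 3 reads over the group; intervals for ratios of few reads are exact, at 95%, and cover counting error only. Per-sample totals were 6410320 to 31813921 reads.

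The members, gene lists and tests were chosen with earlier results of these data known. Outside the lists, genes were named by the size of their change: the 12 largest rises and falls in log2 with at least 20 reads in the lower group and a mean of at least 5 CPM, 6 each way with fewer reads, and the 8 largest each way in CPM. Within lists these were the 4 called genes with the smallest p, and other members by their role. Not every gene that the rule allows is described, and some are not reported here. Alternatives were the unpaired fit, RLE factors, no filter, DESeq2 1.42.0, fits on fewer libraries and leaving out each library; leaving out the mt replicate 1 libraries and counting shared loci once were chosen after seeing the data. Promoter windows came from RefSeq (GRCm38.p6) and were used for sequence only, with no coordinates mixed between builds.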

Additional observations from a re-analysis of the deposited data

Results flagged for a closer look

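The effect of TGFB2 differed between the wt and mt lines, by edgeR's quasi-likelihood test of the difference, in the 8 gene entries below, which had the smallest p in each direction. Each difference is the log2 effect in wt minus that in mt, with n = 2 libraries per group.

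The difference was 3.20 for Sod3 (extracellular superoxide dismutase), whose effect was -1.69 ± 0.20 in wt and -4.88 ± 0.24 in mt. It was 3.42 for Wisp1, a CCN family matrix gene, with effects of 6.21 ± 0.29 and 2.79 ± 0.24, and 3.42 (3.425) for Elm1, an entry of the same locus. For mCLCA1, a chloride channel accessory gene whose entry overlaps Clca1, the difference was 2.63, from 158 and 301 CPM in vehicle and 223 and 540.2 CPM with TGFB2 in wt and 113 and 212 CPM in mt vehicle to 26.1 and 60.3 CPM with TGFB2. The wt values of that gene overlapped between groups.

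Negative differences were -2.55 for Actn3 (alpha-actinin 3), -1.44 for Epb4.1l1 (a membrane skeleton protein), -2.26 for Eef1a2 (a translation elongation factor of muscle and neurons) and -1.70 for Plekha6. Epb4.1l1 had 39.2 and 29.4 CPM in vehicle and 13.2 and 10.4 CPM with TGFB2 in wt, against 30.03 and 22.2 CPM in mt vehicle and 26.8 and 21.7 CPM in mt with TGFB2. Eef1a2 had 24.4 and 50.3 CPM in vehicle and 6.31 and 9.32 CPM with TGFB2 in wt, against 8.11 and 12.1 and then 9.72 and 10.8 CPM in mt. Plekha6 fell in both lines (-3.01 ± 0.22 in wt and -1.31 ± 0.21 in mt). Unpaired, the call remained for Wisp1 and Elm1 (adjusted p = 0.011 for each) and was lost for Sod3 (0.14), mCLCA1 (0.59), Actn3 (0.073), Epb4.1l1 (0.53), Eef1a2 (0.19) and Plekha6 (0.12). Each genotype is 1 line, so genotype and line cannot be told apart.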

How the results depend on the processing

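For TGFB2 against vehicle in wt cells, the count of genes called stayed within 1.5 times its value of 5837 with RLE size factors (5854), no low-count filter (5523), DESeq2 (5900), only the 8 wt libraries (6439), without the mt replicate 1 libraries (6509) and with shared loci counted once (5749). The pairing by replicate number mattered: without it 3383 genes were called, 1862 higher and 1521 lower. With only the 4 compared libraries more were called, 8196 in all, 3964 higher and 4232 lower. Leaving out 1 library gave 3858 to 4330 genes (2079 to 2339 for TGFB2 against vehicle in wt cells, higher; 1610 to 2015 for TGFB2 against vehicle in wt cells, lower), the fewest without wt TGFB2 replicate 1; the library left alone in its group is then assumed to vary like the others. Of the 216 named genes, 21 lost their call unpaired, and 8 to 15 did so when 1 library was left out.

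The line difference depended most on the processing. It was called in 8 genes (8 positive, 0 negative) unpaired and again in 8 with the 8 libraries of its 4 groups, in 380 with DESeq2 (311 and 69), in 67 without the mt replicate 1 libraries (64 and 3), and in 38 to 395 with 1 library left out (37 to 339 positive, 1 to 56 negative). The cause was not tested.

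Among genes that were not called, Snai2 changed sign unpaired (-0.081), with no filter (-0.026), with 8 wt (-0.049) or 4 libraries (-0.054) and without the mt replicate 1 libraries (-0.013), and ran from -0.332 to 0.328 with 1 library left out. Tgfb2 did so with no filter (-0.005) and with 8 wt (-0.019) or 4 libraries (-0.013), and ran from -0.187 to 0.236 with 1 left out.

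With 2 libraries per group, small changes and genes under 20 reads per group were measured with the least precision, and each genotype was 1 line.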

Other observations

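Axon guidance genes, several of which also guide vessels and epicardial cells, rose in 12 of 30 cases and fell in 5 (7 and 2 unpaired), beside 18.4% and 16.3% of all genes. The Slit ligand genes went in opposite directions: Slit2 had 139.7 and 103 CPM in vehicle and 682 and 621 CPM with TGFB2 (2.44 ± 0.31, adjusted p = 3.6e-05). Slit3 had 384 and 229 CPM in vehicle and 106 and 74.7 CPM with TGFB2 (-1.74 ± 0.21, adjusted p = 2.2e-05). Ntn1, netrin 1, had 12.9 and 11.2 CPM in vehicle and 61 and 58.3 CPM with TGFB2 (2.31 ± 0.29, adjusted p = 3.3e-05), and the semaphorin gene Sema3f was lower at 236 and 146 CPM in vehicle and 101 and 80.9 CPM with TGFB2 (-1.04 ± 0.21, adjusted p = 0.0015, unpaired adjusted p = 0.063). All 4 had groups that did not overlap.

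Immediate early genes fell in 7 of 20 cases and rose in 1 (5 and 1 unpaired). The share called, 40%, lay near the 34.7% of all genes tested and is no result about the list. The riser was Fosl1, which encodes the AP-1 subunit FRA1 (7.64 and 15.5 CPM in vehicle and 99.5 and 105 CPM with TGFB2, 3.17 ± 0.47, adjusted p = 0.00018), while its relative Fosl2 fell (258 and 268 CPM in vehicle and 113 and 125 CPM with TGFB2, -1.14 ± 0.19, adjusted p = 0.0004) together with Klf4 (54.4 and 59.4 CPM in vehicle and 20.5 and 20.1 CPM with TGFB2, -1.49 ± 0.16, adjusted p = 8e-06), a repressor of smooth muscle genes.

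The counts of the junction, secretory and ATF4 lists lay near the share of all genes (18.4% higher and 16.3% lower, unpaired 11.1% and 9.03%) or below it, and are no result about these lists. Of 19 junction genes 4 rose and 4 fell (3 and 3 unpaired). The desmosomal genes Dsp and Jup rose (0.539 and 0.173 CPM in vehicle and 9.53 and 5.83 CPM with TGFB2, 4.48 ± 0.53, and 216 and 167 CPM in vehicle and 419 and 402 CPM with TGFB2, 1.11 ± 0.19). Secretory machinery rose in 6 of 27 cases and fell in 2 (4 and 1 unpaired), with the collagen prolyl isomerase gene Fkbp10 among the risers (353 and 285 CPM in vehicle and 821 and 749 CPM with TGFB2, 1.30 ± 0.20). ATF4 targets rose in 6 of 23 and fell in 4 (2 and 1 unpaired). Of 33 oxidative phosphorylation genes 5 fell and none rose (1 and 0 unpaired), and of 28 cytosolic ribosomal protein genes 1 rose and 1 fell (1 and 0 unpaired).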
